A study of Mus musculus with 4 samples.

Results

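The barcodes described here are droplets of a mouse tumour experiment that carried ample RNA but almost none from mitochondria. They were chosen by 3 measured values in the 4 deposited single-cell matrices: at least 5000 UMIs (unique molecular identifiers, each counting 1 captured RNA molecule), at least 200 genes, and under 0.3% of UMIs from the mitochondrial genome. The rule found 466 of the 8054 barcodes that met the first 2 limits. They had been labelled nucleus-like, after the nuclear markers Malat1, Neat1, Camk1d and Cdk8. The data go against that label for most of them: 347 of the 466 (74.5%) held no Malat1 UMI, and 431 (92.5%) held no Neat1 UMI, so they are called mitochondria-poor barcodes throughout. They were set against the 7126 comparison barcodes of the same libraries, which had at least 5000 UMIs and 1 to 10% mitochondrial UMIs. Another 345 barcodes, of 0.3 to 1%, lay between.

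The series title concerns enzyme nanocapsules and T cell immunity. Tumours of C57Bl6 mice aged 6 to 8 weeks, whose cells the labels call cancer cells, were sampled after nanocapsule treatment (Nanocapsule, 2 libraries) or as controls (Control, 2 libraries). The labels name no tumour line, capsule content, dose or animal. They do not say whether the 2 libraries of a group came from separate animals, so p-values measure the spread between libraries, which may be technical. Where mitochondria-poor and comparison barcodes are compared with the library as a block, p-values measure only how that difference varied between libraries. Where 4 values are given for a kind of barcode, they follow the order Nanocapsule 1, Nanocapsule 2, Control 1, Control 2.

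Malat1 and Neat1 are long noncoding RNAs that stay in the nucleus, in nuclear speckles and paraspeckles, and are therefore used to recognise nuclei that have lost their cytoplasm. RNA of the mitochondrial genome stays inside mitochondria, so it is lost from isolated nuclei and from any particle without mitochondria. Messenger RNAs for cytosolic proteins are translated on free ribosomes, whereas those for membrane and secreted proteins are translated on the endoplasmic reticulum.

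The 4 matrices held 98943390 to 140491491 UMIs. Mitochondria-poor barcodes were shallower than comparison barcodes, with median UMIs of 9358, 12493, 9814 and 10594 in mitochondria-poor barcodes, against 59223, 81842, 37887 and 73178 in comparison barcodes, so single transcripts were compared after each barcode had been thinned at random to 5000 UMIs. The libraries shared 30 barcode sequences among those that met the UMI and gene limits, and none of these was mitochondria-poor. No doublet caller was run. Every interval below is an exact Clopper-Pearson 95% interval and covers counting error only.

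The nuclear RNAs were first compared at equal depth. Malat1 (mouse build GRCm38, chromosome 19, 5795690 to 5802672, minus strand) ends in a tract rich in A that folds into a triple helix and keeps the RNA stable, and RNase P releases a small tRNA-like RNA from just downstream.
The stretch around its longest run of A is shown because the libraries were primed on A tracts of RNA, and Malat1, which has no conventional poly(A) tail, can be captured there. The sequence is from transcript Malat1-201 of GENCODE M21, at chr19:5795928-5796059 on the minus strand, and capitals mark the run of 12 A:

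Malat1-201: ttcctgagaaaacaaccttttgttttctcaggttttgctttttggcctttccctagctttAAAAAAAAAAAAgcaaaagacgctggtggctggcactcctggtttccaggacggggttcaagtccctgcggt

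A run of at least this length was found in the exons of 3931 of 55450 genes (7.09%), so the feature is not particular to Malat1.

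After thinning, a Malat1 UMI was found in 10.7, 12.1, 30.3 and 23.1% of mitochondria-poor barcodes, against 96.0, 96.2, 98.1 and 92.6% of comparison barcodes. The kinds did not overlap, with 19.1, 19.0, 31.5 and 33.8% of mitochondria-poor barcodes before thinning, and the barcodes in between lay in the middle, at 57.3, 52.9, 78.1 and 76.7%. Neat1 was found in 0.763, 2.59, 10.1 and 6.15% of mitochondria-poor barcodes, against 32.4, 34.3, 36.3 and 35.7% of comparison barcodes. Both nuclear RNAs were thus scarcer where mitochondrial RNA was scarce. Cdk8, which encodes a kinase of the Mediator complex, went the other way: its median was 15, 15.5, 11 and 13 UMIs in thinned mitochondria-poor barcodes, against 3, 4, 3 and 4 UMIs in thinned comparison barcodes. Camk1d, a calcium-dependent protein kinase, was found in 56.5, 58.6, 47.2 and 62.3% of mitochondria-poor barcodes, against 49.6, 55.3, 42.5 and 54.8% of comparison barcodes, and these shares overlap between libraries. Against all comparison barcodes the 4 markers therefore did not move together. Set against comparison barcodes of 5000 to 20000 UMIs, Cdk8 had a log2 fold of -0.066 (SE 0.10) and Camk1d one of -1.84 (SE 0.58). The values of these markers were the reason for the label, so they are given here without a test between the kinds.

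**Figure D1:**
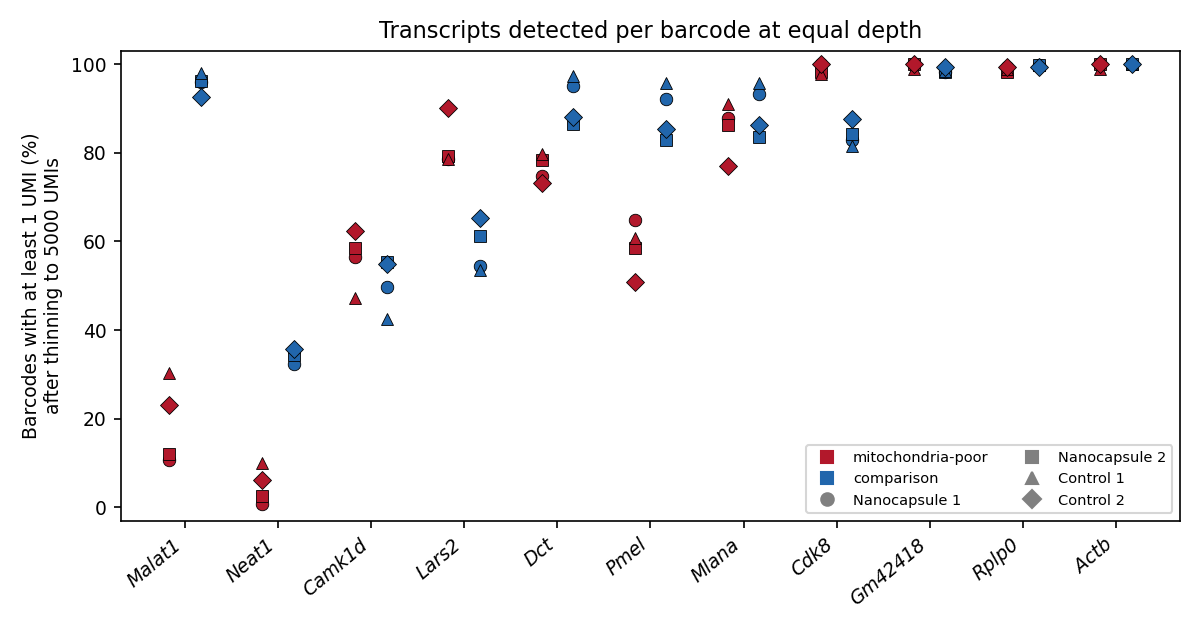
Share of barcodes with at least 1 UMI of each transcript after thinning every barcode to 5000 UMIs (percent, vertical axis), for mitochondria-poor barcodes (red, left of each pair) and comparison barcodes (blue), with 1 point per library. Malat1 and Neat1 points of the mitochondria-poor barcodes lie far below those of the comparison barcodes, while Rplp0 and Actb are found in nearly all barcodes of both kinds.

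These levels were set beside those of free RNA. Malat1 and Neat1 together made up 0.0286, 0.0297, 0.121 and 0.0926% of UMIs in mitochondria-poor barcodes, against 0.223, 0.213, 0.196 and 0.193% in comparison barcodes. In droplets of 10 to 99 UMIs, which hold mostly free RNA, they made up 0.144, 0.140, 0.159 and 0.123%, so in every library the mitochondria-poor barcodes lay below the free RNA as well. Mitochondrial RNA made up 2.83, 2.56, 2.87 and 1.46% of the free RNA. The mitochondrial UMIs that mitochondria-poor barcodes did hold came to 2.58, 2.58, 2.88 and 4.33% of that level, and 29, 19, 10 and 19 barcodes held none.

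The mitochondria-poor barcodes were not alike in Malat1. Besides the 347 barcodes without a Malat1 UMI, 69 held between 1 UMI and 1000 CPM (UMIs scaled to a common total), and 50 (10.7%) held at least 1000 CPM, the range of most comparison barcodes. Those 50 barcodes were found 4 times in Nanocapsule 1, 7 times in Nanocapsule 2, 18 times in Control 1 and 21 times in Control 2. Summed, they held 4035 CPM Malat1, 192 CPM Neat1 and 1312 CPM of the noncoding transcript Gm26917. The 347 barcodes without Malat1 held 1.71 CPM Neat1 and 1.71 CPM Gm26917, so in these sums both were high where Malat1 was high. Cdk8 went the other way, with 2090 CPM in the 50 barcodes and 5003 CPM in the 347. The 25 chromatin regulators summed to 2606 CPM in the 50 barcodes and 1037 CPM in the 347, and the cytosolic ribosomal proteins to 164420 and 222517 CPM. Melanocytic markers summed to 9158 CPM in the 50 barcodes, against 3987 CPM in the 347. Macrophage markers summed to 1704 CPM in the 50, against 227 CPM in the 347, and fibroblast markers to 556 against 21.3 CPM. The split was made on Malat1 after its values had been seen and is a description.

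Clustering of the 466 barcodes gave 11 clusters of 17 to 76 barcodes, and 32 of the 50 barcodes with at least 1000 CPM Malat1 lay in 2 of them, clusters 6 and 9. Cluster 6, of 42 barcodes, was led by Gm26917 and by Pde4d, Pde10a and Prkg1, genes of cyclic nucleotide signalling; it held 3215 CPM Malat1, although 57.1% of its barcodes had none. Cluster 9, of 21 barcodes, was led by Spp1, Mmp12, Ccl2 and Lyz2, made by macrophages, beside Col3a1, a fibroblast collagen, and held 2154 CPM Malat1. Its melanocytic markers summed to 8306 CPM, against 4743 CPM in the other members, its macrophage markers to 3946 CPM and its fibroblast markers to 1640 CPM. Cluster 9 thus carried markers of several classes and stays unnamed, and 18 of its 21 barcodes came from the Control libraries. In these 2 clusters Malat1 stood at 1734, 2648, 3011 and 3479 CPM, in sums over 13, 11, 16 and 23 barcodes. In the remaining clusters it stood at 25.4, 68.6, 255 and 296 CPM, so there too it was lower in the Nanocapsule than in the Control libraries. Cluster 1, the largest, was led by histone genes of DNA replication such as Hist1h2ae and Hist1h4d, with the cohesin factor Esco2 and the mitotic kinase gene Aurkb. Cluster 5 was led by Nppb, Adm and Pgf, and 31 of its 50 barcodes came from Nanocapsule 1. Cluster 10 was led by the interferon-inducible GTPases Iigp1, Gbp2 and Irgm1, with 14 of its 18 barcodes from Nanocapsule 2. Cluster 8 was led by genes of the secretory pathway, such as Rcn3 and Rpn1, with 13 of its 21 barcodes from Nanocapsule 2.

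Levels differed along the mitochondrial share, but not evenly. Malat1 stood at 309 CPM in barcodes of 0 to 0.05%, 650.2 CPM at 0.05 to 0.1%, 649 CPM at 0.1 to 0.2% and 2024 CPM at 0.2 to 0.3%. Outside the rule it stood at 1554 CPM at 0.3 to 0.5%, 1586 CPM at 0.5 to 1%, 1490 CPM at 1 to 2% and 3693 CPM at 5 to 10%. By library, Malat1 stood at 26.4, 81.9, 1375 and 285 CPM at 0 to 0.05% and at 964, 1632, 785 and 5147 CPM at 0.2 to 0.3%. The lowest bin was thus far below the comparison bins in 3 libraries and close to them in Control 1, whereas in the bin of 0.2 to 0.3% the sum of 53 barcodes was carried by 11 barcodes of Control 2. At the edge of the rule, the 19 barcodes of 0.25 to 0.3% held 374 CPM Malat1 and the 25 barcodes of 0.3 to 0.35% held 1229 CPM. The pigment list stood at 5052 CPM at 0 to 0.05%, 9239 CPM at 0.05 to 0.1%, 8635 CPM at 0.3 to 0.5% and 15811 CPM at 2 to 5%. The cytosolic housekeeping list stood at 98351, 83935, 82484 and 70002 CPM in the same bins. Depth changed along this axis too, and its part was not tested.

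**Figure D2:**
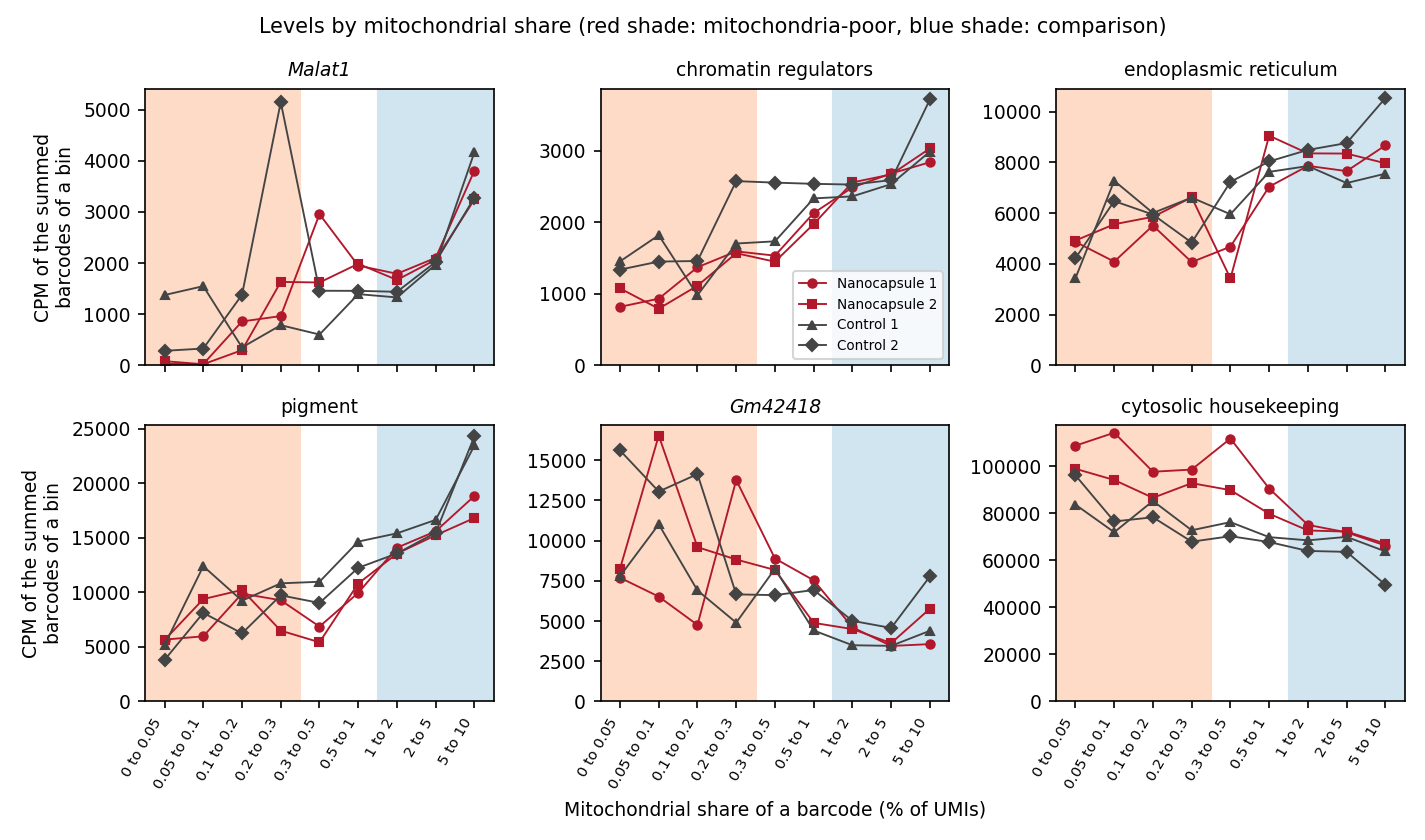
Level of Malat1, Gm42418 and 4 gene lists (CPM of the summed barcodes of a bin, vertical axes from 0) by the mitochondrial share of a barcode (percent of UMIs, horizontal axis), with 1 line per library. In the red zone of the mitochondria-poor barcodes the chromatin, endoplasmic reticulum and pigment lists lie mostly below the blue zone of the comparison barcodes, and Gm42418 and the housekeeping list mostly above it; some bins of 1 library hold under 20 barcodes.

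The cell class of origin was read from summed markers. The 10 melanocytic markers, among them the pigment enzymes Dct and Tyrp1 and the melanosome protein Pmel, were all detected in every library. They summed to 4893, 5015, 6387 and 3950 CPM in mitochondria-poor barcodes, against 12005, 11563, 12848 and 11593 CPM in comparison barcodes and 5911, 6738, 7809 and 7410 CPM in free RNA. The mitochondria-poor level was thus below the free RNA level in every library. At least 2000 CPM of these markers was reached by 66.4, 71.6, 83.1 and 58.5% of mitochondria-poor barcodes, against 93.9, 84.0, 96.6 and 86.4% of comparison barcodes. The 12 macrophage markers summed to 353, 268, 461 and 726 CPM in mitochondria-poor barcodes, against 728, 916, 749.5 and 919.7 CPM in comparison barcodes. In the clusters of mitochondria-poor barcodes other than cluster 9, most of this sum was Apoe. It made up 691 of 699 CPM in cluster 8 and 300 of 402 CPM in cluster 6, against 811 of 3946 CPM in cluster 9. Outside cluster 9 the sum is therefore mainly a readout of Apoe. T cell markers summed to 3.21, 5.66, 0.781 and 22.7 CPM in mitochondria-poor barcodes, against 12.6, 45.3, 3.77 and 14.9 CPM in comparison barcodes. Fibroblast markers summed to 23.1, 25.7, 512 and 18.0 CPM in mitochondria-poor barcodes, with Control 1 far above the others, and erythroid markers to 114, 0.515, 0 and 0 CPM, nearly all in Nanocapsule 1. Of all marker lists, the melanocytic one was the highest in the mitochondria-poor barcodes of each library.

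The transcriptomes were then compared as summed UMIs, with 1 mitochondria-poor and 1 comparison sum per library and the mitochondrial genes left out. edgeR's quasi-likelihood test with the library as a block called 2808 of 14872 genes higher (18.9%) and 3600 lower (24.2%) at a Benjamini-Hochberg adjusted p of 0.05, or 43.1% in all, and 49.2% had an unadjusted p under 0.05. The groups differ in depth, so these counts are a background for the lists below and not a result about single genes. The median over all genes was -0.15 on the log2 scale, mitochondria-poor over comparison. Of the calls, 43.8% were higher; with library size alone in place of TMM normalisation, which moved the median of all genes by -0.20, 25.4% were higher. The comparison barcodes of 5000 to 20000 UMIs numbered 852, of which 414 reached 2000 CPM of the melanocytic markers. In the 852, macrophage markers summed to 6555, 8550, 4772 and 10561 CPM and T cell markers to 333, 1277, 31.6 and 367 CPM. Against the 852, 2242 of 9917 genes were called higher and 2870 lower. A closer match was therefore made after the data had been seen, with at least 2000 CPM of these markers in both kinds and 5000 to 20000 UMIs in the comparison barcodes. It left 320 mitochondria-poor and 414 comparison barcodes, of which 40 came from Nanocapsule 2, and called 414 of 8225 genes higher and 990 lower, with 29.5% of calls higher. It is called the matched comparison below.

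Nuclear long noncoding RNAs were lower. Of the 15 listed, 9 were tested, 7 were called lower and none higher, with a median log2 fold of -1.66; in the matched comparison 5 of 7 were called lower. Malat1 and Neat1 are among the 9 and were known to be low when the list was used. Airn, an RNA that silences imprinted genes, stood at 11.7, 7.29, 9.51 and 19.9 normalised CPM in mitochondria-poor sums, against 64.7, 63.6, 58.2 and 74.2 in comparison sums (log2 fold -2.44 ± 0.17, SE). Pvt1, which lies beside Myc, stood at 37.3, 33.7, 35.7 and 46.9 normalised CPM in mitochondria-poor sums, against 122, 106, 116 and 119 in comparison sums (log2 fold -1.59 ± 0.13). For each of these 2 RNAs the mitochondria-poor sums of all 4 libraries lay below all comparison sums. Meg3, an imprinted RNA, had a log2 fold of 1.15 ± 0.98 and was not called. Across all long noncoding genes tested, 28 of 1942 were higher (1.44%) and 322 lower (16.6%). Both shares were below those of all genes, 18.9% and 24.2%. Their median log2 fold was -0.73, against -0.086 for protein coding genes. Unspliced RNA was not counted on its own.

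All 25 chromatin regulators were called lower, with a median log2 fold of -0.94, against 24.2% of all genes; in the matched comparison 9 of 24 were. They encode large nuclear proteins, and their messenger RNAs are long. Chd4, a nucleosome remodeller, stood at 98.7, 151, 196 and 207 normalised CPM in mitochondria-poor sums, against 306, 308, 299 and 317 in comparison sums (log2 fold -0.95 ± 0.10, adjusted p = 5.66e-19). Smarca4, the motor of the SWI/SNF remodelling complex, stood at 110.4, 119, 147 and 139 normalised CPM in mitochondria-poor sums, against 199.5, 191, 193 and 197 in comparison sums (log2 fold -0.60 ± 0.10), with no overlap between the kinds. The 25 speckle and splicing genes split: 8 were higher and 11 lower, and in the matched comparison 6 were higher and none lower. The higher ones included splicing factors of the SR family, with Srsf3 at 0.86, Srsf7 at 0.59 and Srsf2 at 0.50 on the log2 scale. The lower ones included the large speckle scaffolds Son at -0.68 and Srrm2 at -0.62, and the kinase genes Clk1 at -0.95 and Clk4 at -0.67.

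Calls followed the genomic span of the gene. Of genes spanning up to 5 kb, 24.6% were higher and 8.30% lower, with a median log2 fold of 0.12. Of genes spanning 30 to 100 kb, 11.2% were higher and 32.9% lower, with a median of -0.30. Of genes over 300 kb, 1.80% were higher and 58.0% lower, with a median of -1.15. The share of lower calls grew at every step of span, while the share of higher calls was largest at 5 to 10 kb. In the matched comparison 6.59% of genes up to 5 kb, 12.6% of those of 30 to 100 kb and 35.4% of those over 300 kb were lower. Genes are not independent replicates, so this is a description of the 8 sums.

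**Figure D3:**
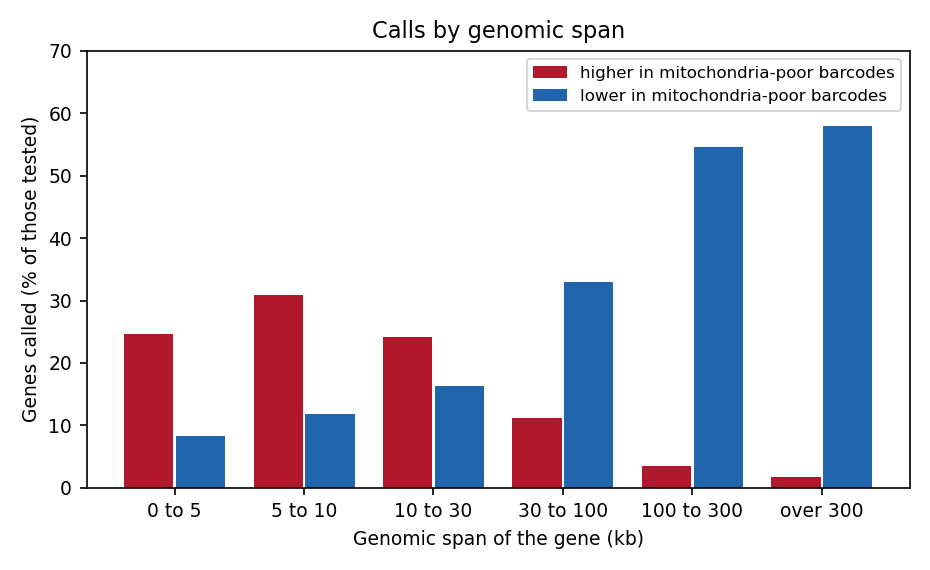
Share of tested genes called higher (red) or lower (blue) in mitochondria-poor than in comparison barcodes (percent, vertical axis from 0) by the genomic span of the gene in kb (horizontal axis). Lower calls climb from 8.30% of genes up to 5 kb to 58.0% of genes over 300 kb, and higher calls drop to 1.80%.

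Of the largest falls by the naming rule, Kcnq5, a potassium channel, stood at 5.85, 5.05, 14.3 and 10.5 normalised CPM in mitochondria-poor sums, against 61.8, 63.3, 58.5 and 55.7 in comparison sums (log2 fold -2.78 ± 0.18). It was lower in all 4 libraries with no overlap, and its log2 fold in the matched comparison was -2.03. Sptbn1, a spectrin of the membrane skeleton, stood at 37.3, 19.6, 48.4 and 43.6 normalised CPM in mitochondria-poor sums, against 196, 171, 174 and 173 in comparison sums (log2 fold -2.30 ± 0.12). Igf2r, a receptor that carries lysosomal enzymes, fell by 2.22 on the log2 scale. Epha3, an ephrin receptor, fell by 2.21 on the log2 scale, but its log2 fold was -0.63 and not called in the matched comparison and 0.19 against all comparison barcodes of 5000 to 20000 UMIs. Further falls were the noncoding or unnamed transcripts Airn, Gm42047, Gm41335, Gm47283 and 2700054A10Rik, with log2 folds of -2.22 to -2.44. The log2 fold of 2700054A10Rik was 0.11, and not called, against comparison barcodes of 5000 to 20000 UMIs.

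Genes of the endoplasmic reticulum list were mostly lower. Of 20, 15 were lower and 1 was higher, with a median of -0.41; in the matched comparison 13 were lower and none higher. Hsp90b1, the endoplasmic reticulum chaperone Grp94, stood at 426, 389, 486 and 390.0 normalised CPM in mitochondria-poor sums, against 1024, 1095, 994 and 1198 in comparison sums (log2 fold -1.35 ± 0.10, adjusted p = 4.16e-43). The folding factors Calr and Canx fell by 1.21 and 1.12, and Hspa5 by 0.90, on the log2 scale. The exceptions were small: Sec61g, a subunit of the translocation channel, rose by 0.43, and Sec61b, another subunit, had a log2 fold of 0.19 and was not called. Families of membrane and matrix proteins were added after the lists had been seen. Of all genes tested, 18.9% were called higher and 24.2% lower, but 54.6% of those spanning 100 to 300 kb were lower. The part of span in these families was not tested, and their counts in the matched comparison are not given. Among integrins, which bind the extracellular matrix, 9 of 22 tested were lower and none higher, with Itgb1 at -1.57. Among laminins, 5 of 9 were lower and none higher, with Lama4 at -2.11; among receptor tyrosine phosphatases 8 of 13, with Ptprm at -1.40; and among plexins and semaphorins 12 of 22, with Plxnb2 at -2.10. Of 206 solute carriers, which transport metabolites across membranes, 98 were lower and 14 higher, and of 176 Tmem genes 75 were lower and 8 higher.

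Against all comparison barcodes, pigment genes were mostly lower as well. Of 20, 12 were lower and 4 higher, with a median of -0.76. In the matched comparison 9 of 19 were lower and 2 higher. That match was made on the melanocytic markers, which all belong to this list, so its counts are no separate support. Dct (chromosome 14, 118012790 to 118052244), an enzyme of melanin synthesis in the melanosome membrane, stood at 1000, 1061, 1185 and 864 normalised CPM in mitochondria-poor sums, against 3604, 3428, 3622 and 3285 in comparison sums (log2 fold -1.77 ± 0.09, adjusted p = 1.41e-75). Pmel, which forms the fibrils of the melanosome, stood at 994, 832, 1231 and 580.4 normalised CPM in mitochondria-poor sums, against 2068, 1914, 2490 and 1973 in comparison sums (log2 fold -1.26 ± 0.09). Tyrp1, another melanosome enzyme, stood at 1143, 897, 1103 and 473 normalised CPM in mitochondria-poor sums, against 2094, 1900, 2251 and 1693 in comparison sums (log2 fold -1.20 ± 0.09). For all 3 genes the kinds did not overlap, and Mlana, a small melanosome protein, fell by only 0.50 on the log2 scale. The 4 that were higher were the transcription factor Sox10 at 0.30, the transcriptional coregulator Cited1 at 0.69, the small GTPase Rab38 at 0.37 and the channel Trpm1 at 0.26; Mitf, the master factor of the lineage, had a log2 fold of -0.15 and was not called. Against all comparison barcodes of 5000 to 20000 UMIs, the median of the list turned to 0.15, with 6 higher and 1 lower. The direction of the list thus depended on the comparison barcodes used.

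**Figure D4:**
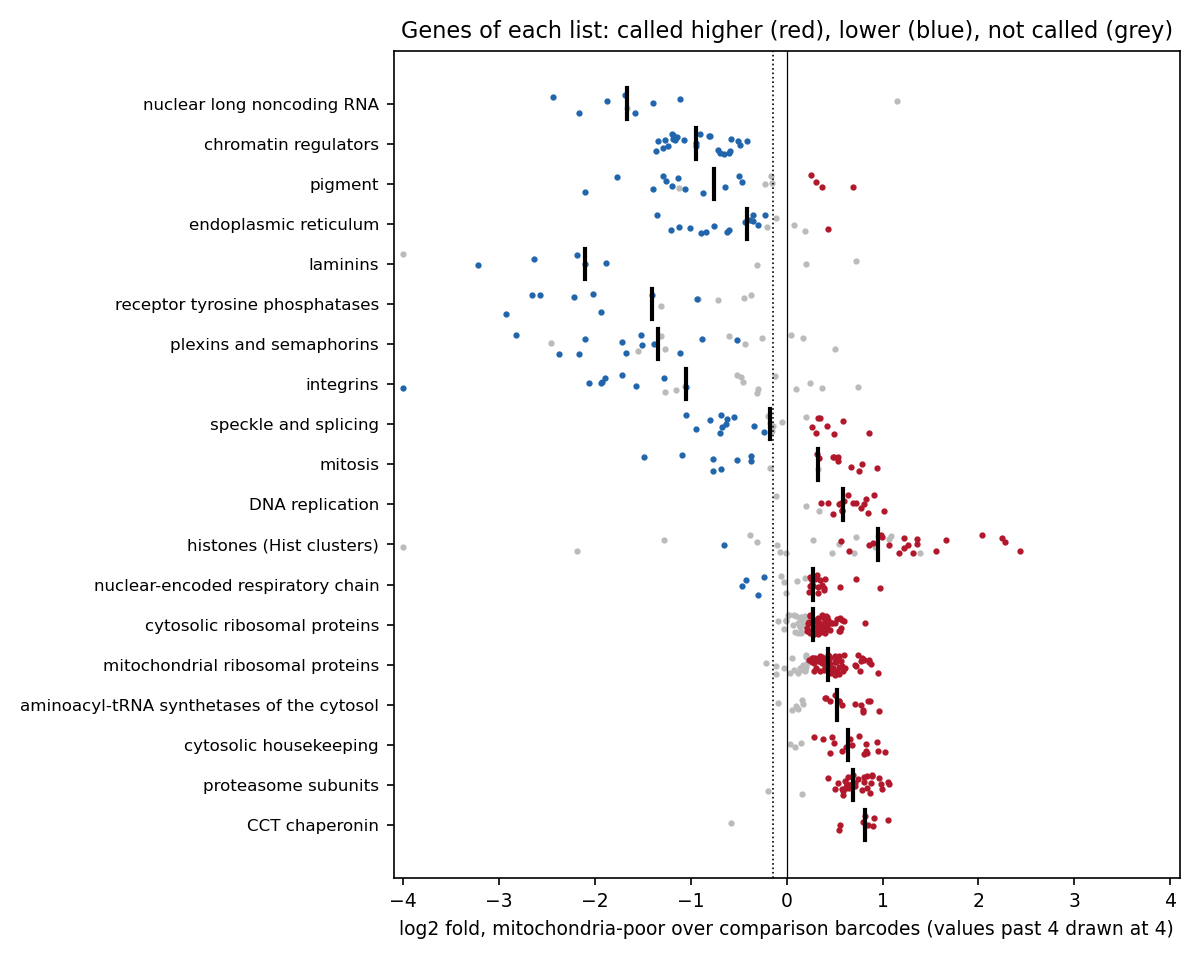
log2 fold of each tested gene, mitochondria-poor over comparison barcodes (horizontal axis), by gene list or family (rows); thick bars are medians, the solid line is 0 and the dotted line is the median of all genes. The noncoding, chromatin, secretory and membrane protein groups at the top lie mostly to the left, and the ribosomal, housekeeping, proteasome and chaperonin groups at the bottom mostly to the right.

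Genes of cytosolic proteins were mostly higher. Of 20 abundant housekeeping genes, 17 were higher and none lower, with a median of 0.64; in the matched comparison 3 were higher. Eef1a1, the elongation factor that brings tRNA to the ribosome, stood at 12432, 10471, 8474 and 9476 normalised CPM in mitochondria-poor sums, against 6634, 6185, 6863 and 6006 in comparison sums (log2 fold 0.66 ± 0.09, adjusted p = 9.29e-12). Ppia, a protein-folding isomerase, stood at 10712, 9734, 9477 and 9256 normalised CPM in mitochondria-poor sums, against 6447, 5836, 7407 and 6646 in comparison sums (log2 fold 0.58 ± 0.09). The mitochondria-poor sums of both genes lay above every comparison sum. Of 37 proteasome subunits, 35 were higher and none lower, with Psmc5 at 1.07, and of 9 subunits of the CCT chaperonin, which folds actin and tubulin, 8 were higher, with Cct8 at 1.06. Of 13 tubulins 11 were higher, with Tubb5 at 1.00, of 51 translation initiation factors 35 were higher and 6 lower, and of 20 cytosolic tRNA synthetases 14 were higher, with Sars at 0.97. These families were added after the lists had been seen. In the matched comparison, where 414 of 8225 genes were higher, 10 of 36 proteasome subunits, 2 of 8 chaperonin subunits, 4 of 11 tubulins and 1 of 20 synthetases were called higher and none of these lower. Of 48 initiation factors 11 were higher and 2 lower.

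Ribosomal transcripts were near the comparison level. After thinning, messenger RNAs of cytosolic ribosomal proteins made up a median of 21.4, 20.7, 20.7 and 21.9% of UMIs in mitochondria-poor barcodes, against 20.1, 19, 19.8 and 18.7% in comparison barcodes. Of 83 such genes, 54 were higher and none lower, with a median of 0.28, but with library size alone 31 were higher and 6 lower, and in the matched comparison 1 was higher and 2 lower with a median of -0.11. No direction is therefore given for the family. Of 78 mitochondrial ribosomal proteins, which are made in the cytosol and imported, 60 were higher and none lower, with a median of 0.43; 8 were higher and none lower in the matched comparison. The 28 respiratory chain subunits of the nuclear genome had 19 higher and 4 lower, with a median of 0.27, but 6 higher and 7 lower with library size alone, and none higher and 4 lower in the matched comparison. These messenger RNAs thus did not share the near absence of mitochondrial RNA.

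Genes of DNA replication were higher. Of 20, 17 were higher and none lower, with a median of 0.59, and 12 of 19 were higher in the matched comparison. Rrm2, a subunit of the enzyme that makes DNA precursors, stood at 275, 407, 417 and 325 normalised CPM in mitochondria-poor sums, against 139.7, 183, 179 and 199.8 in comparison sums (log2 fold 1.01 ± 0.10, adjusted p = 7.27e-24). Mcm2, a subunit of the replicative helicase, stood at 184, 246, 237 and 211 normalised CPM in mitochondria-poor sums, against 129.8, 131, 129 and 139.7 in comparison sums (log2 fold 0.72 ± 0.10). Neither gene overlapped between the kinds. Of 39 histone genes of the Hist clusters, 20 were higher and 1 lower, with a median of 0.95, and 10 of 12 were higher in the matched comparison. Hist1h4d stood at 113, 137, 110.2 and 93.8 normalised CPM in mitochondria-poor sums, against 18.4, 23, 18.5 and 23.7 in comparison sums (log2 fold 2.44 ± 0.12), and Hist1h2ab at 2.04 on the log2 scale. Histone copies are nearly identical, so reads may be split between them, and Gm20628, which rose by 1.68, is antisense in a histone locus. Of 20 mitosis genes, 10 were higher and 8 lower: Cdk1 rose by 0.94 and Cdc20 by 0.79, while Mki67 fell by 1.49 and Cenpf by 1.10 on the log2 scale. Of the list, 12 were higher and none lower against comparison barcodes of 5000 to 20000 UMIs, and 3 higher and 1 lower in the matched comparison.

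The largest rises by the naming rule, besides histones, were transcripts of a recurrent group that includes Gm42418 (chromosome 17, 39846958 to 39848788), a noncoding gene at a ribosomal RNA locus. Gm42418 stood at 9360, 9771, 8219 and 14689 normalised CPM in mitochondria-poor sums, against 3423, 3526, 3371 and 4459 in comparison sums (log2 fold 1.48 ± 0.09). Cdk8 stood at 4490, 6697, 2704 and 4429 normalised CPM in mitochondria-poor sums, against 1032, 1018, 820.1 and 1104 in comparison sums (log2 fold 2.14). Cmss1 stood at 2064, 3145, 1118 and 3224 normalised CPM in mitochondria-poor sums, against 586, 674, 476 and 919 in comparison sums (log2 fold 1.77 ± 0.09); it overlaps Filip1l, and AY036118 overlaps Gm42418 on the opposite strand, so reads of these pairs may not be told apart. All 3 were higher in all 4 libraries, but not against comparison barcodes of like depth. In plain CPM, Gm42418 stood at 8225, 8959, 8094 and 14067 in mitochondria-poor barcodes, against 3634, 3871, 3492 and 4840 in all comparison barcodes and 12151, 19149, 10424 and 17660 in those of 5000 to 20000 UMIs. Of the 10 listed transcripts 7 were higher and 1 lower, but in the matched comparison none was higher and 3 were lower, with log2 folds of -0.67 for Gm42418, 0.06 for Cdk8 and -0.19 for Cmss1. The ribosomal RNA locus took 0.957, 1.05, 0.962 and 1.63% of UMIs in mitochondria-poor barcodes, 0.484, 0.512, 0.444 and 0.631% in comparison barcodes and 11.5, 16.1, 10.0 and 13.4% in free RNA.

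Lars2, the mitochondrial leucyl-tRNA synthetase, and the noncoding Gm15564 rose by 1.93 and 2.05 on the log2 scale, and had log2 folds of -0.48 and -0.28 in the matched comparison. Their transcripts share 52 bases, of which the first 30 are shown because reads from them cannot be assigned to either gene. They lie in Lars2-201 within chr9:123462048-123462099, plus strand, and in Gm15564-202 on chromosome 16, minus strand:

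Lars2-201 and Gm15564-202: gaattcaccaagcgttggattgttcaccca

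Both genes are therefore reported as uncertain.

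Stress and immune lists gave mixed counts. Of 17 oxidative stress genes 14 were higher and 2 lower, with the peroxide-removing Prdx1 at 0.69 and the quinone reductase Nqo1 at 1.43; 1 of 15 was higher in the matched comparison. Of 19 hypoxia genes 8 were higher and 7 lower: the mitophagy receptor Bnip3 rose by 0.84 and Ndrg1 by 0.98, while the secreted factors Vegfa and Adm fell by 0.59 and 0.73 on the log2 scale. The list had 2 higher and 6 lower against comparison barcodes of 5000 to 20000 UMIs and none higher and 7 of 16 lower in the matched comparison. Of 18 immediate early genes 5 were lower and none higher, with Fos at -1.20 and Jun at -0.91, a share near the 24.2% of all genes. Against comparison barcodes of 5000 to 20000 UMIs 15 of 17 were lower, with a median of -2.29, and in the matched comparison 6 of 15 were lower. Of 21 interferon gamma response genes 7 were higher and 2 lower, and of 16 MHC class I presentation genes 5 were higher and 4 lower. No gene of the last 2 lists separated the kinds without overlap. Against comparison barcodes of 5000 to 20000 UMIs none was higher: 15 of 19 interferon genes were lower, with a median of -2.63, and 16 of 16 MHC class I genes, with a median of -3.47. Those comparison barcodes were rich in macrophage markers, as given above, and the part of this was not tested. In the matched comparison 3 interferon genes could be tested, of which 1 was higher, and of 8 MHC class I genes 1 was higher and 5 lower. No direction is therefore given for these lists.

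The share of mitochondria-poor barcodes was compared between treatments. It was 7.09% (5.96 to 8.36%, 131 of 1848) in Nanocapsule 1 and 8.56% (7.13 to 10.2%, 116 of 1355) in Nanocapsule 2, against 2.60% (2.09 to 3.19%, 89 of 3420) in Control 1 and 9.08% (7.65 to 10.7%, 130 of 1431) in Control 2. Control 1 alone stood apart, and both Nanocapsule shares lay between the Control shares. The means were 7.82% ± 1.04 in Nanocapsule and 5.84% ± 4.58 in Control libraries (SD, n = 2 each), a difference of 1.98 percentage points, and a two-sided exact permutation test gave p = 1, where the smallest p that 2 against 2 libraries allow is 0.333. Without Control 1 the difference turned to -1.26 percentage points. Of all UMIs in barcodes of this size, mitochondria-poor barcodes held 1.61, 2.07, 0.987 and 2.16%.

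Genes were also compared between treatments within the mitochondria-poor barcodes, as 4 sums, with normalised CPM computed over these sums alone. Of 9226 genes, edgeR called 12 (0.13%), 5 higher (0.0542%) and 7 lower (0.0759%) in Nanocapsule than in Control, and 705 (7.64%) had an unadjusted p under 0.05. Without Nanocapsule 2 the count was 20, without Control 1 it was 65 and without Control 2 it was 125. Malat1 had the smallest p: its normalised CPM stood at 284 and 290.2 in the Nanocapsule libraries, against 1108 and 878 in the Control libraries (log2 fold -1.79 ± 0.16, adjusted p = 1.69e-04). The groups did not overlap, which says little with 2 libraries a group. The share of all tested genes without overlap was not counted for this comparison. The direction of Malat1 held without each library in turn. Its call was lost at a mitochondrial limit of 0.1% (log2 fold -3.87, adjusted p = 0.487) and of 0.5% (log2 fold -0.79, adjusted p = 0.580). The number of Malat1-rich barcodes moved with it, with 11 of 247 in the Nanocapsule libraries and 39 of 219 in the Control libraries at 1000 CPM or more, and its part in the fold was not tested.

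The 5 genes higher in Nanocapsule encode 2 cytoskeletal proteins, a receptor, a lipid droplet protein and a metallothionein. Zyx, a protein of focal adhesions, stood at 186 and 206 in the Nanocapsule libraries, against 65.9 and 82.6 in the Control libraries (log2 fold 1.39 ± 0.17, adjusted p = 0.00301). Cnn2, an actin-binding calponin, stood at 379 and 255 in the Nanocapsule libraries, against 124 and 145 in the Control libraries (log2 fold 1.23 ± 0.19, adjusted p = 0.0327). Tnfrsf12a, the receptor of the cytokine TWEAK, stood at 69.2 and 58.5 in the Nanocapsule libraries, against 21.7 and 23 in the Control libraries (log2 fold 1.5 ± 0.23, adjusted p = 0.0179). In each of these the lower Nanocapsule library lay above the higher Control library. Hilpda, a lipid droplet protein induced in hypoxia, stood at 222 and 157 in the Nanocapsule libraries, against 62.1 and 86.3 in the Control libraries (log2 fold 1.33 ± 0.21, adjusted p = 0.0327), and Mt2, a metallothionein, at 580.3 and 543 in the Nanocapsule libraries, against 276 and 284 in the Control libraries (log2 fold 1.00 ± 0.14, adjusted p = 0.00766). Without Nanocapsule 1 the calls of Cnn2, Hilpda, Mt2 and Tnfrsf12a were lost, with log2 folds of 0.93, 1.07, 0.96 and 1.38, and that of Cnn2 was lost without Control 1 too, at 1.14.

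Among the 7 genes lower in Nanocapsule, C1qb and Lsp1 are made by immune cells. C1qb, a complement subunit of macrophages, stood at 1.39 and 1.04 in the Nanocapsule libraries, against 15.7 and 42.4 in the Control libraries (log2 fold -4.56, adjusted p = 0.0187), and Lsp1, a leukocyte cytoskeletal protein, at 3.46 and 1.57 in the Nanocapsule libraries, against 15 and 22.5 in the Control libraries. Fosb, an AP-1 factor, stood at 1.39 and 1.04 in the Nanocapsule libraries, against 23.2 and 24.1 in the Control libraries (log2 fold -4.23, adjusted p = 0.00301), and Ly6a, the surface protein Sca-1, was at 0 in both Nanocapsule libraries and at 20.2 and 15.7 in the Control libraries. Among mitochondria-poor barcodes, C1qb stood at 256 CPM in cluster 9 and at 0 to 2.24 CPM in each other cluster. It thus lay mostly in a single small cluster, in which 18 of 21 barcodes came from the Control libraries. Macrophage markers, Apoe among them, moved the same way in sum, as given above, and their part in these calls was not tested. Fbxl7, a ubiquitin ligase subunit, stood at 22.9 and 28.2 in the Nanocapsule libraries, against 68.9 and 81.1 in the Control libraries (log2 fold -1.55 ± 0.22), and Crip1, a LIM protein, at 22.9 and 23.5 in the Nanocapsule libraries, against 71.1 and 59.1 in the Control libraries (log2 fold -1.48 ± 0.23). The calls of C1qb and Crip1 were lost without either Nanocapsule library, and that of Fbxl7 without Nanocapsule 1, with log2 folds of -4.74 and -4.34 for C1qb, -1.46 and -1.49 for Crip1 and -1.41 for Fbxl7. When only barcodes of at least 2000 CPM melanocytic markers were summed, Malat1 was the single gene still called, with a log2 fold of -1.33. Hmox1, the haem oxygenase, stood at 436 and 321 in the Nanocapsule libraries, against 66.6 and 153 in the Control libraries (log2 fold 1.76 ± 0.51), and was not called (adjusted p = 0.625). Of the interferon gamma response, 7 genes were tested and none called: Irgm1 stood at 27.0 and 119 in the Nanocapsule libraries, against 12.7 and 12 in the Control libraries, with Nanocapsule 2 alone high. No gene of 10 tested in MHC class I presentation was called.

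**Figure D5:**
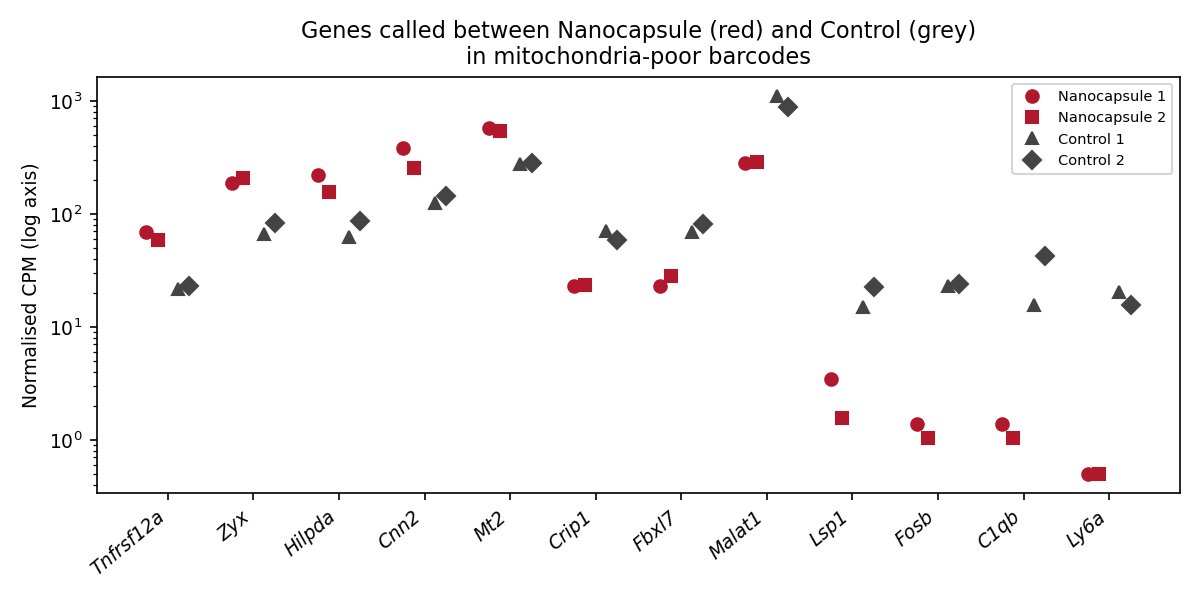
Normalised CPM (log axis) of the 12 genes called between treatments within mitochondria-poor barcodes, with Nanocapsule libraries in red on the left and Control libraries in grey on the right; libraries at 0 are drawn at 0.5. The groups do not overlap for any of the 12 genes, which adds little to the calls with 2 libraries a group. Malat1 is at 284 and 290.2 in the Nanocapsule libraries and at 1108 and 878 in the Control libraries.

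Whether treatment differences were particular to the mitochondria-poor barcodes was tested with an interaction term over all 8 sums. Of 15863 genes, 140 (0.883%) had a treatment difference that differed between the kinds, 29 higher (0.183%) and 111 lower (0.7%) in mitochondria-poor barcodes, and 10 of the 12 genes above were among them, which share their sums with this test. An unadjusted p under 0.05 was found for 1323 genes (8.34%). Malat1 stood at 298 and 309.9 normalised CPM in Nanocapsule and 1165 and 921 in Control mitochondria-poor sums, and at 2033 and 1857 in Nanocapsule and 1792 and 1668 in Control comparison sums (difference of log2 folds -1.94 ± 0.15, adjusted p = 2.00e-34). In comparison barcodes it was thus slightly higher in Nanocapsule, in mitochondria-poor barcodes lower. The size of this p depended on the setting. In the same interaction test, the smallest adjusted p of any gene was 1.58e-05 at a mitochondrial limit of 0.5%. Without the library block it was 0.040. Zyx stood at 195 and 219.6 normalised CPM in Nanocapsule and 69.3 and 86.7 in Control mitochondria-poor sums, and at 93.8 and 95.8 in Nanocapsule and 72.8 and 58.6 in Control comparison sums (difference 0.86 ± 0.18, adjusted p = 0.00110). C1qb stood at 1.45 and 1.11 normalised CPM in Nanocapsule and 16.5 and 44.5 in Control mitochondria-poor sums, and at 22.6 and 57.0 in Nanocapsule and 19.7 and 40.4 in Control comparison sums (difference -5.03, adjusted p = 4.63e-20). Of the 12 macrophage markers 3 had a difference called lower and none higher. Without Nanocapsule 2 the count was 37, and without the library block 1 gene was called.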

How the data were processed

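Single-cell 3′ RNA libraries (10x Genomics) of 4 tumour samples were analysed. The authors deposited raw UMI counts per gene and droplet, unfiltered, for 32285 genes on build mm10; Cell Ranger 2.1.1 is given in the submitters' processing notes and Cell Ranger 4 in the file headers, and it is not known which made the counts. Libraries were grouped by the labelled treatment, and totals per library are given in the report; the depth of the mitochondria-poor sums was 1282093 to 1944775 UMIs. Gene positions and span came from GENCODE M21 (32235 genes matched by ID), and spans are those of the gene, introns included. The members and the gene lists were chosen with earlier results of these data known, and the gene families, the Malat1 classes and the closer match were added later, after the values had been seen. The 13 mitochondrial genes were left out of sums. Sums per library and kind were tested with edgeR 4.0.16 (filterByExpr, TMM, quasi-likelihood F test, Benjamini-Hochberg 0.05) in R 4.3.3: kind with the library as a block, treatment within mitochondria-poor sums, and kind by treatment. Normalised CPM comes from those fits and plain CPM from the sums; the SE of a log2 fold is its size over the square root of the F statistic. Members were clustered with scanpy 1.11.5 (2000 variable genes, 20 components, 15 neighbours, Leiden resolution 1). Genes named between kinds were the 4 markers, the 10 largest rises and 10 largest falls past the threshold with at least 50 CPM in the higher kind and the same direction in 4 libraries, and the most abundant list members; between treatments, up to 10 each way with at least 20 CPM, the leading interferon and MHC genes and Hmox1. The leading genes of clusters and Meg3, Clk1, Clk4, Son, Srsf2, Srsf7, Calr, Canx, Hspa5, Sox10, Cited1, Rab38, Trpm1, Mitf, Cdc20, Cenpf, Mki67, Nqo1, Ndrg1, Vegfa, Adm, Sars, Psmc5, Cct8, Tubb5, Itgb1, Lama4, Ptprm, Plxnb2, Lsp1 and Ly6a were chosen after their values were seen. On simulated counts, the step between kinds recovered 100% of genes changed by 2 or 1 on the log2 scale (14325 genes), the treatment step 99% and 70% (9534 genes), and the difference step 95% and 57% (14753 genes), with 0.163, 0.129 and 0.137% false calls. The changed genes were drawn from those above 20 CPM. The simulated spread was estimated with the library as a block, so differences between libraries were left out. The rates of the treatment step may therefore be too good for the real libraries. Other limits on mitochondrial share and UMIs, normalisations, filters, DESeq2 1.42.0 and each library left out were also tried. Some genes that these rules select are not reported here.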

Additional observations from a re-analysis of the deposited data

Results flagged for a closer look

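The 140 genes whose difference between Nanocapsule and Control was not the same in mitochondria-poor and in comparison barcodes, by the interaction test of edgeR, stand out for a closer look, and the values below are differences of log2 folds. Positive values were found for Sdk1 (2.46), Rarb (1.96), B3galt1 (1.74), Pla2g6 (1.43), Dok5 (1.36), Txnrd2 (1.14), Tnfrsf12a (1.06), Tsc22d1 (1.03) and Zyx (0.86). At a mitochondrial limit of 0.1% the value of Sdk1 was -9.88 and that of B3galt1 -1.46, and neither was called. Hbb-bs, a haemoglobin gene of red cells, had a value of 11.45 that rests on sums at or near 0 and is no bound: it stood at 97.3 and 0 normalised CPM in Nanocapsule and 0 and 0 in Control mitochondria-poor sums, and its value was -2.43 and not called at a minimum of 10000 UMIs. Negative values were found for C1qc (-5.77), C1qb (-5.03), Clec4e (-4.04), Fosb (-3.97), Cd52 (-3.73), Cybb (-3.50), C1qa (-3.46), Laptm5 (-3.30), Rgs1 (-3.26) and Ly6e (-3.02). C1qa, C1qb, C1qc, Clec4e, Cybb, Laptm5 and Cd52 are genes of macrophages or other leukocytes, and macrophage markers in sum were lower in Nanocapsule than in Control mitochondria-poor barcodes. Their part in these values was not tested.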

How the results depend on the processing

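The difference in the share of mitochondria-poor barcodes ranged from -1.26 to 5.22 percentage points when 1 library was left out, and turned to -1.26 without Control 1. Between kinds, 414 genes were higher and 990 lower in the matched comparison and 1492 were higher with library size alone, against 2808 and 3600 as described. Between treatments, against 12 genes, 98 were called at a mitochondrial limit of 0.1%, 162 without a filter on low counts, 1 with 2000 CPM melanocytic markers in both kinds, and 14 to 125 without 1 library. At a limit of 0.5% edgeR called 0, with 769 genes at an unadjusted p under 0.05. DESeq2 at the limit of 0.3% called 12, but not the same genes: 10 were higher and 2 lower, against 5 and 7 with edgeR. For the difference between kinds, against 140 genes, 359 were called at 0.1%, 12 with DESeq2, 1 without the library block, 57 with 2000 CPM melanocytic markers in both kinds, and 37 to 205 without 1 library. With the replicate number as a replicate block, 30 genes were called between treatments, 20 higher and 10 lower; same-numbered sums did not deviate together (r = 0.0233 over 9226 genes), so the numbers are not shown to pair the libraries. Leaving out a library leaves 1 library in its group, which is then assumed to vary like the rest. Of the values of single named genes under the alternatives, 1076 between kinds kept direction and side of the threshold, 121 lost the call, 37 gained one and 67 reversed; between treatments these numbers were 179, 33, 7 and 13, and for the difference 229, 112, 10 and 12. Values whose fit gave no adjusted p, as with DESeq2 for some genes, are among those counted as kept, so the kept counts include lost calls. The reversed log2 folds follow, and the cause was not tested. With DESeq2 the log2 folds were Cox8a 0.030, Ier3 0.034 and Cxcl10 -0.092 (mitochondria-poor over comparison). With DESeq2 size factors the log2 folds were Cox8a 0.030 and Ier3 0.036 (mitochondria-poor over comparison). At 10000 UMIs the log2 folds were Ier3 0.052 (mitochondria-poor over comparison), B2m -0.034 (Nanocapsule over Control) and Hbb-bs -2.43 (difference of the 2 folds). With 2000 CPM melanocytic markers in both kinds the log2 folds were Ier3 0.0078 and Cxcl10 -0.59 (mitochondria-poor over comparison), Cxcl10 1.63, H2-D1 1.00 and H2-K1 1.18 (Nanocapsule over Control) and Irgm1 -0.16, Gbp2 1.98, Cxcl10 0.26 and H2-K1 0.11 (difference of the 2 folds). Against comparison barcodes of 5000 to 20000 UMIs the log2 folds were Cdk8 -0.066, Gm48099 -0.53, Gm15564 -0.18, Gm19951 -0.50, Lars2 -0.46, Cmss1 -0.72, 2700054A10Rik 0.11, Epha3 0.19, Camk1d -1.84, Gm42418 -0.64, AY036118 -0.61, Mlana 0.21, Cox8a 0.0060, Ftl1 -0.017, Top2a 0.73, Irgm1 -0.39, Gbp2 -2.25, Cxcl10 -2.63, Psmb10 -0.74, Gpx1 -0.64 and Mrps24 0.25 (mitochondria-poor over comparison). In the matched comparison the log2 folds were Gm48099 -0.14, Gm15564 -0.28, Gm19951 -0.14, Lars2 -0.48, Cmss1 -0.19, Camk1d -2.32, Gm42418 -0.67, AY036118 -0.11, Cox5b -0.22, Ndufa4 -0.22, Tmsb10 -0.27, Ost4 -0.14, Sec61g -0.060, Top2a 0.012, Cxcl10 -1.90, Higd1a -0.20, Fam162a -0.36, Gpx1 -0.16, Rpl32 -0.066, Rpl13 -0.21, Rps2 -0.088, Rplp1 -0.024, Mrpl30 -0.061 and Mrps33 -0.19 (mitochondria-poor over comparison). With library size alone the log2 folds were Sec61b -0.0034, Ost4 -0.12, Cxcl10 -0.089, Rpl13 -0.043 and Rps2 -0.040 (mitochondria-poor over comparison). At a mitochondrial limit of 0.1% the log2 folds were Cox8a 0.021 and Cxcl10 -0.70 (mitochondria-poor over comparison), Cxcl10 1.65 (Nanocapsule over Control) and Sdk1 -9.88, B3galt1 -1.46 and Cxcl10 0.44 (difference of the 2 folds). At a mitochondrial limit of 0.5% the log2 folds were H2-D1 0.17 and H2-K1 0.25 (mitochondria-poor over comparison) and H2-D1 0.32 and H2-K1 0.46 (Nanocapsule over Control). With no filter on low counts the log2 folds were Ost4 -0.011 (mitochondria-poor over comparison). Without 1 library, the log2 fold of mitochondria-poor over comparison ranged, for Ier3 -0.098 to 0.12 (reversed without Control 1), Cxcl10 -0.71 to 0.46 (reversed without Control 2), H2-D1 -0.74 to 0.26 (reversed without Nanocapsule 2) and H2-K1 -0.87 to 0.096 (reversed without Nanocapsule 2). Without 1 library, the log2 fold of Nanocapsule over Control ranged, for Gbp2 -0.36 to 6.35 (reversed without Nanocapsule 2), Cxcl10 -1.67 to 1.45 (reversed without Control 2), B2m -0.33 to 0.96 (reversed without Nanocapsule 1 and Control 1), H2-D1 -1.19 to 1.16 (reversed without Control 2) and H2-K1 -1.07 to 0.88 (reversed without Control 2). Without 1 library, the log2 fold of difference of the 2 folds ranged, for Irgm1 -0.039 to 0.62 (reversed without Control 2), Gbp2 -2.48 to 1.65 (reversed without Control 2), Cxcl10 -2.48 to 0.025 (reversed without Control 2) and H2-D1 -2.01 to 0.018 (reversed without Control 2). With 2 libraries a group and sums of 89 to 131 mitochondria-poor barcodes, low genes were measured with few UMIs, and differences in them may not have been detectable at this depth.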
